A study of Mus musculus with 672 samples.

Results

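The cells at both ends of the early lymphoid path were compared in control mice: lymphoid-primed multipotent progenitors (LMPPs) at the start and B cell-biased lymphoid progenitors (BLPs) at the end, with all-lymphoid progenitors (ALPs) placed between them gene by gene. The members are the cells that the labels name as LMPP or BLP of a control mouse, 168 of the 672 cells in the series (48 LMPPs and 36 BLPs from each of 2 mice), of which 163 passed the limits on cell quality. The control mice, numbered 18218 and 18220, carried Mbd3 flox/flox alleles, were 7 weeks old and had a mixed C57BL6/129Ola background. Null mice 18217 and 18219 are labelled as carrying the deleted allele on both chromosomes, were of the same age and background, and are used here to see the same span a second time and to estimate the spread. The labels used here do not name the Cre line that made the deletion. All cells came from bone marrow of femurs and tibiae, were lineage-negative, and were sorted as Sca-1+, c-Kit+, Flt3-high and B220-. LMPPs were IL-7Ra-, ALPs were IL-7Ra+ and Ly6D-, and BLPs were IL-7Ra+ and Ly6D+. Each cell was sequenced separately by a full-length protocol, and the counts of kept cells were summed per mouse, so that the mouse and not the cell is the replicate.

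LMPPs still hold lymphoid and some myeloid potential and have largely lost the erythroid one. The IL-7 receptor transmits the cytokine signal that early B lymphopoiesis in mice depends on, and surface Ly6D divides lymphoid progenitors into a broad and a B cell-biased pool. Ebf1 and Pax5 encode the transcription factors that specify and then commit cells to the B lineage, acting on genes of the pre-B cell receptor such as Cd79a, Vpreb and Blnk. Rag1 and Rag2 encode the recombinase that assembles antigen receptor genes. Stem and multipotent cells are known for Hlf, Lmo2, Kit and Cd34.

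Of the kept cells, 47 and 47 were LMPPs (mice 18218 and 18220) and 34 and 35 were BLPs. The control ALPs numbered 74 and 40 after 10 and 44 cells were left out, so the ALP library of mouse 18220 rests on the smaller share of its sorted cells. The LMPP and BLP libraries held 81842869 to 137497554 gene counts, and the median cell had between 1736823 and 2340592 nuclear gene counts, 5.28% to 6.35% mitochondrial counts and 8.11% to 14.9% spike-in counts. In the median gene, a single cell gave 15.3% to 34.8% of a control library's reads. Levels are CPM, the counts of a gene scaled to equal library size with TMM factors, and fold changes with adjusted p-values come from edgeR's quasi-likelihood test over 19903 genes in all 12 libraries of the series. The labels do not say how the 4 mice relate to each other, and with 2 mice in a group the p-values measure only the spread between these mice. A summed level cannot tell fewer expressing cells from less RNA per cell, so shares of cells with a read are given for selected genes.

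The gate genes were read first. Il7r, the receptor subunit that separates LMPPs from the other populations, stood at 26.7 and 14.5 CPM in LMPPs, 622 and 874 CPM in ALPs and 782 and 909 CPM in BLPs (mice 18218 and 18220 in this order throughout). Its log2 fold change from LMPP to BLP was 5.36 ± 0.35 (SE, adjusted p = 5.6e-04), of which ALPs held 96.7%. Ly6d, the gene of the protein that divides ALPs from BLPs, stood at 3.95 and 4.29 CPM in LMPPs, 40.1 and 133 CPM in ALPs and 2793 and 3749 CPM in BLPs, a log2 fold change of 9.63 ± 0.83 (SE, adjusted p = 0.0026). Neither gene is a finding for the gates that used its protein, and both match the labels. Flt3, a cytokine receptor required high in every gate, differed by -0.24 ± 0.11 (SE, adjusted p = 0.37), and Ptprc, the CD45 gene, by 0.15 ± 0.17 (SE, adjusted p = 0.77). Kit, the stem cell factor receptor used as a positive marker for all 3 populations, fell from 406 and 503 CPM to 115 and 89.7 CPM, a log2 fold change of -2.15 ± 0.38 (SE, adjusted p = 0.044, or 0.078 with mouse as a block). Ly6a, which encodes Sca-1, went from 501 and 298 CPM to 113 and 88.0 CPM without passing the test (log2 difference -2.00 ± 0.62 SE, adjusted p = 0.21). Mbd3, intact in control mice, stood at 48.1 and 137 CPM in LMPPs and 82.4 and 191 CPM in BLPs. Its log2 difference of 0.57 ± 1.52 (SE) did not pass the test (adjusted p = 0.93). That SE includes the spread of the null libraries, where the gene is deleted, and is not the spread of the control mice alone. On log2(CPM + 1) the difference was 0.76 and 0.48 within the control mice. In 5 of the 6 null libraries Mbd3 stood between 0.189 and 2.88 CPM. The library labelled null LMPP of mouse 18219 went against its label with 24.7 CPM, of which 1 of its 47 cells gave 98.3% of the reads, and results that rest on this library are also given without it.

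From LMPP to BLP, 117 genes rose and 71 fell, 0.588% and 0.357% of the genes tested and 0.945% in either direction. The fit shares its spread over all 12 libraries and does not pair the mice. The counts were 81 and 45 with mouse as a block, 34 and 8 with the control libraries alone, and 2 and 0 with the block on these alone. Without the library labelled null LMPP of mouse 18219 they were 113 and 43. In all 188 of them both BLP libraries lay on the same side of both LMPP libraries, which was also so for 3983 genes on the higher side (20%) and 4316 on the lower side (21.7%) among all genes tested. The size of the change ran from 0.84 (Cd24a and Arpc5l) upward among genes that rose, with a median of 2.61, and the median among genes that fell was -3.31. These medians follow from the choice of genes past a threshold and are given as a description. Ell3, an elongation factor gene, had no read in either LMPP library and up to 2.4 CPM in BLPs, where 1 cell in each mouse gave 86.7% and 85.5% of its reads, and is given without a fold change. Nearly all calls were lost when either control mouse was left out, a fit with 1 control library per population. The direction of the 188 genes stayed as it was. This follows from both BLP libraries already lying on the same side of both LMPP libraries and adds no evidence.

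Transcription factors of the B lineage were led by Ebf1 and Pax5. Of 26 such genes tested, 5 rose (Ebf1, Pax5, Foxp1, Myb and Tcf12) and none fell, beside 0.588% and 0.357% of all genes tested. Those shares apply to every list below. A positive difference was found in 23 of the 26, beside 9819 of all 19903 genes tested. The median log2 difference was 1.42 beside 0.00 for all genes tested. Ebf1, the specifying factor, stood at 1.01 and 0.724 CPM in LMPPs, 24.7 and 19.9 CPM in ALPs and 267 and 227 CPM in BLPs. The mice lay close together at each stage, and no groups overlapped. The log2 fold change over the span was 8.16 ± 0.33 (SE, adjusted p = 2.8e-05), and ALPs held 57.5% of it. Ebf1 was the only gene of all those tested that also passed the threshold between ALP and BLP (1 gene, 0.00502% of those tested, log2 fold change 3.47, adjusted p = 0.011). Ly6d, whose protein divided these gates, did not pass there (log2 difference 5.24 ± 0.69 SE, edgeR adjusted p = 0.15). A gene without a call between ALP and BLP may therefore still differ. Pax5, the commitment factor, followed a later course, with 0.190 and 0.166 CPM in LMPPs, 0.267 and 1.51 CPM in ALPs and 43.1 and 36.4 CPM in BLPs (log2 fold change 7.79 ± 0.92 SE, adjusted p = 0.0094). ALPs held 29.5% of that change in the fit, and on the log2 scale of each mouse 1.74% in mouse 18218 and 22.1% in mouse 18220. In the ALPs of mouse 18220, 1 cell gave 82.6% of the Pax5 reads. Pou2af1, a B cell coactivator, went from 0.190 and 0.043 CPM to 50.8 and 23.8 CPM, and Foxo1, a regulator of Rag and Il7r, from 12.6 and 3.87 CPM to 103 and 160 CPM, but neither passed the threshold (adjusted p = 0.065 and 0.062). Foxp1 and Myb, both already above 100 CPM in LMPPs, rose by 1.31 ± 0.15 and 1.58 ± 0.23 on the log2 scale (SE), and Tcf12, an E protein gene, by 1.54 ± 0.26; with mouse as a block Tcf12 had an adjusted p of 0.061 in edgeR.

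Genes of the pre-B cell receptor and of B cell signalling had the highest median of the 18 lists. Of 24 tested, 9 rose (Ly6d, Vpreb2, Vpreb3, Blk, Cd79a, Blnk, Dok3, Cd93 and Cd24a), none fell, and the list's median log2 difference was 3.32. Ly6d set the BLP gate through its protein and is not a finding in this list. Cd79a, a signalling chain of the receptor, stood at 1.27 and 1.18 CPM in LMPPs, 15.1 and 0.941 CPM in ALPs and 363 and 419 CPM in BLPs. The ALPs of mouse 18220 were no higher than LMPPs while those of mouse 18218 were, and both mice were high in BLPs (log2 fold change 8.31 ± 1.49 SE, adjusted p = 0.048). Vpreb2, which forms the surrogate light chain together with the product of Igll1, stood at 0.116 and 0.195 CPM in LMPPs, 4.69 and 0.180 CPM in ALPs and 117 and 98.9 CPM in BLPs. Vpreb2 has a close copy in Vpreb1 and reads can be shared between them; Vpreb1 went from 1.45 and 0.210 CPM to 29.6 and 69.9 CPM with an adjusted p of 0.087. Vpreb3, which assists light chain assembly, stayed at 2.39 and 0.291 CPM in ALPs against 1.45 and 1.72 CPM in LMPPs and reached 204 and 271 CPM in BLPs. Blk and Blnk were already high in ALPs. Blk, a Src-family kinase, had 111 and 72.0 CPM in ALPs between 0.768 and 0.449 CPM in LMPPs and 353 and 239 CPM in BLPs, so that ALPs held 81.1% of the change. Blnk, the adaptor that links the pre-B cell receptor to its downstream enzymes, had 478 and 640 CPM in ALPs between 23.9 and 15.1 CPM and 874 and 720 CPM, and ALPs held 90.4%. Igll1 differed between the mice (13.4 and 268 CPM in BLPs) and did not pass the test (adjusted p = 0.077). With mouse as a block in edgeR's fit, 6 of the 24 passed: Vpreb2, Vpreb3, Cd79a and Cd24a no longer did (adjusted p = 0.075, 0.097, 0.076 and 0.075), and Cd72, a B cell coreceptor gene, did (0.043, against 0.058 without the block).

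Among genes of antigen receptor recombination, both recombinase genes rose. Rag1 rose from 2.02 and 3.78 CPM to 282 and 284 CPM (log2 fold change 6.60 ± 0.54 SE, adjusted p = 0.0023), with ALPs at 46.1 and 24.2 CPM. Its exons overlap those of B230118H07Rik on the same strand. Rag2, its partner, started higher and stood at its BLP level in ALPs: 39.8 and 27.7 CPM in LMPPs, 222 and 142 CPM in ALPs and 230 and 129 CPM in BLPs (2.41 ± 0.44 SE, adjusted p = 0.049, or 0.058 with mouse as a block). Xrcc6, the Ku70 gene of DNA end joining, also rose (1.85 ± 0.24 SE, adjusted p = 0.014), and the other 12 of the 15 genes tested did not pass, with a median of 0.58 for the list. Dntt, the template-free polymerase, was the most abundant member and was highest in ALPs, at 9223 and 8218 CPM against 2692 and 1517 CPM in LMPPs and 5319 and 4789 CPM in BLPs; the difference between the ends did not pass (adjusted p = 0.074, or 0.046 with mouse as a block). The immunoglobulin heavy chain constant gene Ighm rose by 1.45 ± 0.13 on the log2 scale (SE, adjusted p = 0.0033), from 1224 and 1005 CPM to 2965 and 3124 CPM.

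Promoters of 4 of these genes are shown because each rose steeply and each holds the letters CAGGTG, or CACCTG on the other strand, the core bound by E proteins such as those encoded by Tcf3 and Tcf12. The sequences run from 250 bases before to 50 bases after the gene start, from RefSeq on build GRCm38.p6, 5′ to 3′ along the gene, with the match in capitals. Those of Cd79a (chr7:24897247-24897546) and Vpreb2 (chr16:17980315-17980614) lie on the plus strand, and those of Rag1 (chr2:101649483-101649782) and Blnk (chr19:40994172-40994471) on the minus strand.
Cd79a: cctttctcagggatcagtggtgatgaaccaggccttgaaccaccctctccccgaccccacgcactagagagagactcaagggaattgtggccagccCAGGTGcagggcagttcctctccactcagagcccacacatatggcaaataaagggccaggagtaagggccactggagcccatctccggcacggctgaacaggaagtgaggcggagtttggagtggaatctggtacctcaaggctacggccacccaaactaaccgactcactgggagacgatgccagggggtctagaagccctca
Vpreb2: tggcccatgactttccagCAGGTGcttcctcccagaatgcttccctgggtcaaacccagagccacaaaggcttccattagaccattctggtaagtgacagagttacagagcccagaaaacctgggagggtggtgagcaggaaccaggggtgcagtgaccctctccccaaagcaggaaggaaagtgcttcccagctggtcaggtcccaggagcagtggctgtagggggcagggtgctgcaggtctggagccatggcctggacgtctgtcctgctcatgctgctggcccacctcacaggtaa
Rag1: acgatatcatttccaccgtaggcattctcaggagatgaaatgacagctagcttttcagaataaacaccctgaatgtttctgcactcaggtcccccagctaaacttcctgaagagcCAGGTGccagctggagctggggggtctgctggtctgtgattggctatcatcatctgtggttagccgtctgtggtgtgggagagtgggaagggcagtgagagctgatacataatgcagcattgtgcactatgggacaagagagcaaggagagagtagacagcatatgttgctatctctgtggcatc
Blnk: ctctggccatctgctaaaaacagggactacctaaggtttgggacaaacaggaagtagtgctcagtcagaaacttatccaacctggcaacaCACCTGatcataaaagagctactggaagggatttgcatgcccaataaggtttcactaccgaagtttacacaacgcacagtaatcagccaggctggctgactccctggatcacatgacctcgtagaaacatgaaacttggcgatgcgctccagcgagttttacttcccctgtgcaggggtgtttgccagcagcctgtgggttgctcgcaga
The match begins at base -154 from the RefSeq start in Cd79a, -232 in Vpreb2, -135 in Rag1 and -160 in Blnk. GENCODE M21 places the starts of Cd79a, Vpreb2 and Blnk further upstream, at 24897381, 17980428 and 40994535. The Blnk window and its match lie wholly downstream of that GENCODE start. At least 1 such match was found in 29 of the 87 genes that rose and have a promoter entry (33.3%), in 10 of 53 that fell (18.9%), in 2481 of 11476 genes tested (21.6%) and in 6098 of all 27025 genes with an entry (22.6%). The letters TCCC and GGGA parted by any 2 bases, a palindrome bound by Ebf1, were in 3 of the 87 (3.45%), 0 of the 53, 1.33% of the genes tested and 1.06% of all. Both motifs were kept after matches to several had been seen, and a match in this window is a description and not a bound site.

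**Figure D1:**
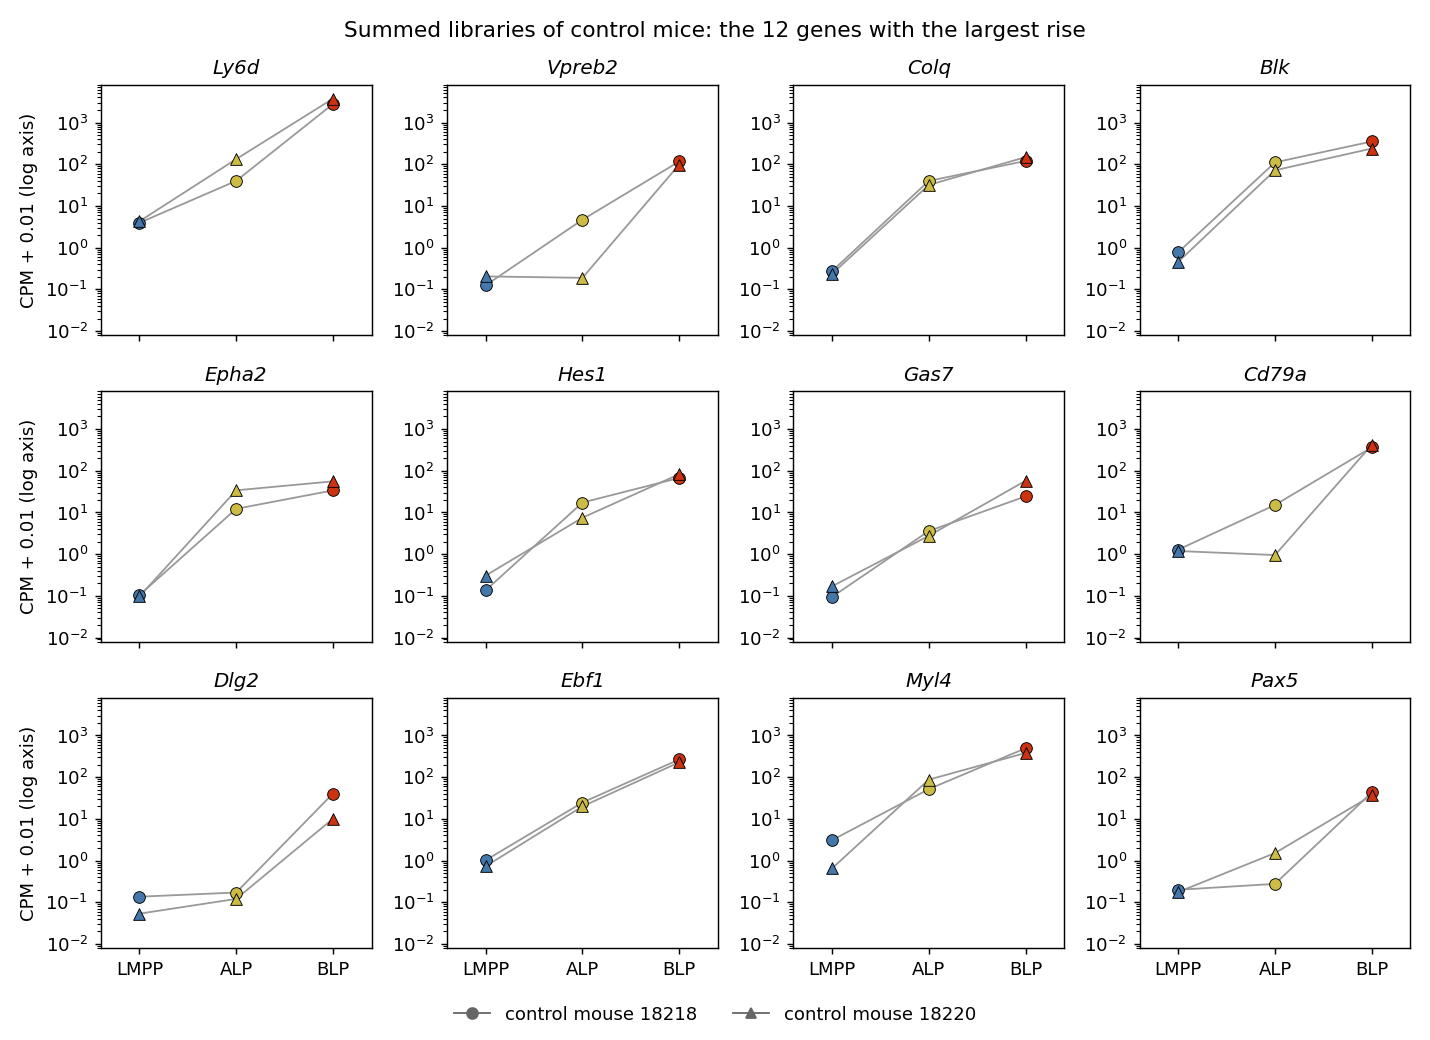
Level of the 12 genes with the largest rise, in CPM plus 0.01 on a log axis, for LMPPs, ALPs and BLPs. Each marker is 1 summed library, and lines join the libraries of 1 control mouse; In ALPs Colq stands at 39.9 and 32.0 CPM, between both ends, while Dlg2, at 0.162 and 0.111 CPM, is near its LMPP level.

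Among the 12 largest rises, genes outside the B cell lists were Colq, Epha2, Hes1, Gas7, Dlg2 and Myl4. Colq, which encodes the collagen tail of acetylcholinesterase, stood at 0.263 and 0.224 CPM in LMPPs, 39.9 and 32.0 CPM in ALPs and 120 and 148 CPM in BLPs, and its mice lay so close that its adjusted p was 2.8e-05 for a log2 fold change of 9.10 ± 0.37 (SE). Myl4, an atrial myosin light chain gene, went from 3.07 and 0.637 CPM through 51.6 and 87.2 CPM to 493 and 380 CPM. Dlg2, a membrane scaffold gene, was near the LMPP level in ALPs (0.162 and 0.111 CPM against 0.126 and 0.043 CPM) and was at 40.6 and 10.1 CPM in BLPs. Epha2, an ephrin receptor gene, stood at 12.2 and 33.9 CPM in ALPs and 33.8 and 55.7 CPM in BLPs, against 0.095 and 0.087 CPM in LMPPs. Gas7 rested on few cells: 61.3% and 60.4% of its BLP reads came from 1 cell in each mouse. In the BLPs of mouse 18220, 1 cell also gave 50.1% of the Epha2 reads. With mouse as a block Gas7 had an adjusted p of 0.079 in edgeR. Exons of Colq, Gas7, Dlg2, Myl4 and Pax5 overlap other annotated genes, on the same strand for Colq and Dlg2, and with no stated strand setting the reads of such pairs cannot be told apart.

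Some genes known from T and dendritic lineages also rose. Hes1, a Notch target, went from 0.126 and 0.297 CPM through 17.3 and 7.49 CPM to 67.3 and 82.7 CPM (log2 fold change 8.44 ± 0.87 SE, adjusted p = 0.0048), and Cd28, a T cell costimulatory receptor gene, from 0.158 and 0.203 CPM to 32.9 and 30.3 CPM, with ALPs at 33.9 and 61.9 CPM. These were the 2 that rose of 21 T lineage and Notch genes tested; none fell, the list's median was 2.54, and the T cell receptor complex genes Cd3d and Cd3e stayed at or under 0.057 CPM in the LMPP and BLP libraries. In the ALPs of mouse 18220 these stood at 9.52 and 13.4 CPM and were read in 2 cells each. In the dendritic list 3 of 17 rose and none fell, with a median of 0.24. A positive difference was found in 9 of the 17 and a negative one in 8. Cox6a2, a cytochrome oxidase subunit gene known in plasmacytoid dendritic cells, went from 4.17 and 3.63 CPM through 264 and 600 CPM to 419 and 775 CPM (7.26 ± 0.60 SE, adjusted p = 0.0023). Siglech, a plasmacytoid dendritic cell receptor gene, went from 0.821 and 4.88 CPM through 124 and 202 CPM to 464 and 802 CPM (7.79 ± 1.17 SE, adjusted p = 0.026), and Pld4 from 8.14 and 7.92 CPM to 111 and 102 CPM. In BLPs 1 cell in each mouse gave 43.2% and 38.9% of the Siglech reads, and in the LMPPs of mouse 18220 1 cell gave 76.6%. The class II genes of the same list did not pass, H2-Aa standing at 8.62 and 13.7 CPM in LMPPs and 0.551 and 17.9 CPM in BLPs. Ly86 (MD-1) and Clec12a were the 2 that rose of 22 neutrophil and monocyte genes tested, by 5.15 ± 0.85 and 1.90 ± 0.20 on the log2 scale (SE), while Csf3r and Lyz2 of that list fell. With mouse as a block, Cd28, Ly86 and Lyz2 no longer passed (adjusted p = 0.094, 0.063 and 0.091). No member rose or fell among 11 NK and innate lymphoid genes (median 0.55), 12 mature B and plasma cell genes (0.78) and 10 macrophage and stroma genes (0.16); the summed level of the macrophage and stroma list was 44.9 to 71.3 CPM in LMPPs and 80.4 to 84.7 CPM in BLPs, and Ms4a1, the CD20 gene of mature B cells, stood at or under 0.411 CPM.

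Only Il7r rose among the 20 genes of IL-7 receptor signalling tested, whose median difference was 0.15. Its protein set the gates, so no member of the list rose apart from the gate gene. Socs2 and Cish, feedback targets of the pathway, went from 0.484 and 4.31 CPM to 122 and 212 CPM and from 9.25 and 12.8 CPM to 70.6 and 87.8 CPM, with adjusted p of 0.051 and 0.091. Bcl2, a survival gene downstream of the receptor, stood at 90.2 and 110 CPM in LMPPs and 186 and 264 CPM in BLPs (adjusted p = 0.24). In the homing list 1 of 18 rose, the integrin gene Itga4 (119 and 89.8 CPM to 300 and 243 CPM, with ALPs above both ends at 334 and 401 CPM), and the list's median was -0.04; with mouse as a block Itga4 had an adjusted p of 0.063.

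Genes of stem and multipotent cells were among those that fell. Of 24 transcription factors of that kind, 4 fell (Hlf, Lmo2, Nfe2 and Nkx2-3), none rose, and the median log2 difference was -1.48. Lmo2, a bridging factor of stem cell complexes, stood at 878 and 830 CPM in LMPPs, 141 and 132 CPM in ALPs and 91.7 and 80.5 CPM in BLPs, a log2 fold change of -3.31 ± 0.21 (SE, adjusted p = 5.6e-04) with 79.8% of it held in ALPs. Hlf, a factor of stem cell identity, went from 196 and 213 CPM through 22.7 and 9.77 CPM to 7.00 and 9.82 CPM, and Nfe2, a factor of megakaryocytes, from 410 and 444 CPM to 71.6 and 80.7 CPM. Hoxa9 and Meis1 were lower in BLPs than in LMPPs in both mice but did not pass (log2 differences -1.78 and -1.18, adjusted p = 0.096 and 0.31), and with mouse as a block Nkx2-3 no longer passed (0.099).

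Of 22 surface and marker genes of stem and multipotent cells tested, 9 fell (Kit, Cd34, Procr, Angpt1, Ifitm1, Ifitm3, Muc13, Adgrg1 and Adgrl4), with 1 that rose (Ly6e) and a median of -1.97. Cd34 went from 1552 and 1685 CPM through 839 and 626 CPM to 356 and 302 CPM, near the middle of its course in ALPs (49.7%). Procr, the endothelial protein C receptor of stem cells, and Muc13, a membrane mucin, were at their end level in ALPs: Procr stood at 33.1 and 21.3 CPM in LMPPs, 0.065 and 0.028 CPM in ALPs and 0.086 and 0.048 CPM in BLPs. Ly6e, a Ly6 family gene near Ly6d, was the exception in direction among the 10 called genes of the list. Of all 22 tested, 6 had a positive difference and 16 a negative one. Ly6e was no higher in ALPs than in LMPPs, at 1924 and 2064 CPM in LMPPs, 1739 and 1627 CPM in ALPs and 4201 and 4642 CPM in BLPs. Ifitm1 was lowest in the middle: 479 and 474 CPM in LMPPs, 30.6 and 17.3 CPM in ALPs and 151 and 96.1 CPM in BLPs, although its difference between ALP and BLP did not pass (log2 difference 2.37, adjusted p = 0.18). With mouse as a block, 6 of the 22 fell and none rose, and Cd34, Kit, Angpt1 and Ly6e were among those lost (adjusted p = 0.053, 0.078, 0.076 and 0.075).

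**Figure D2:**
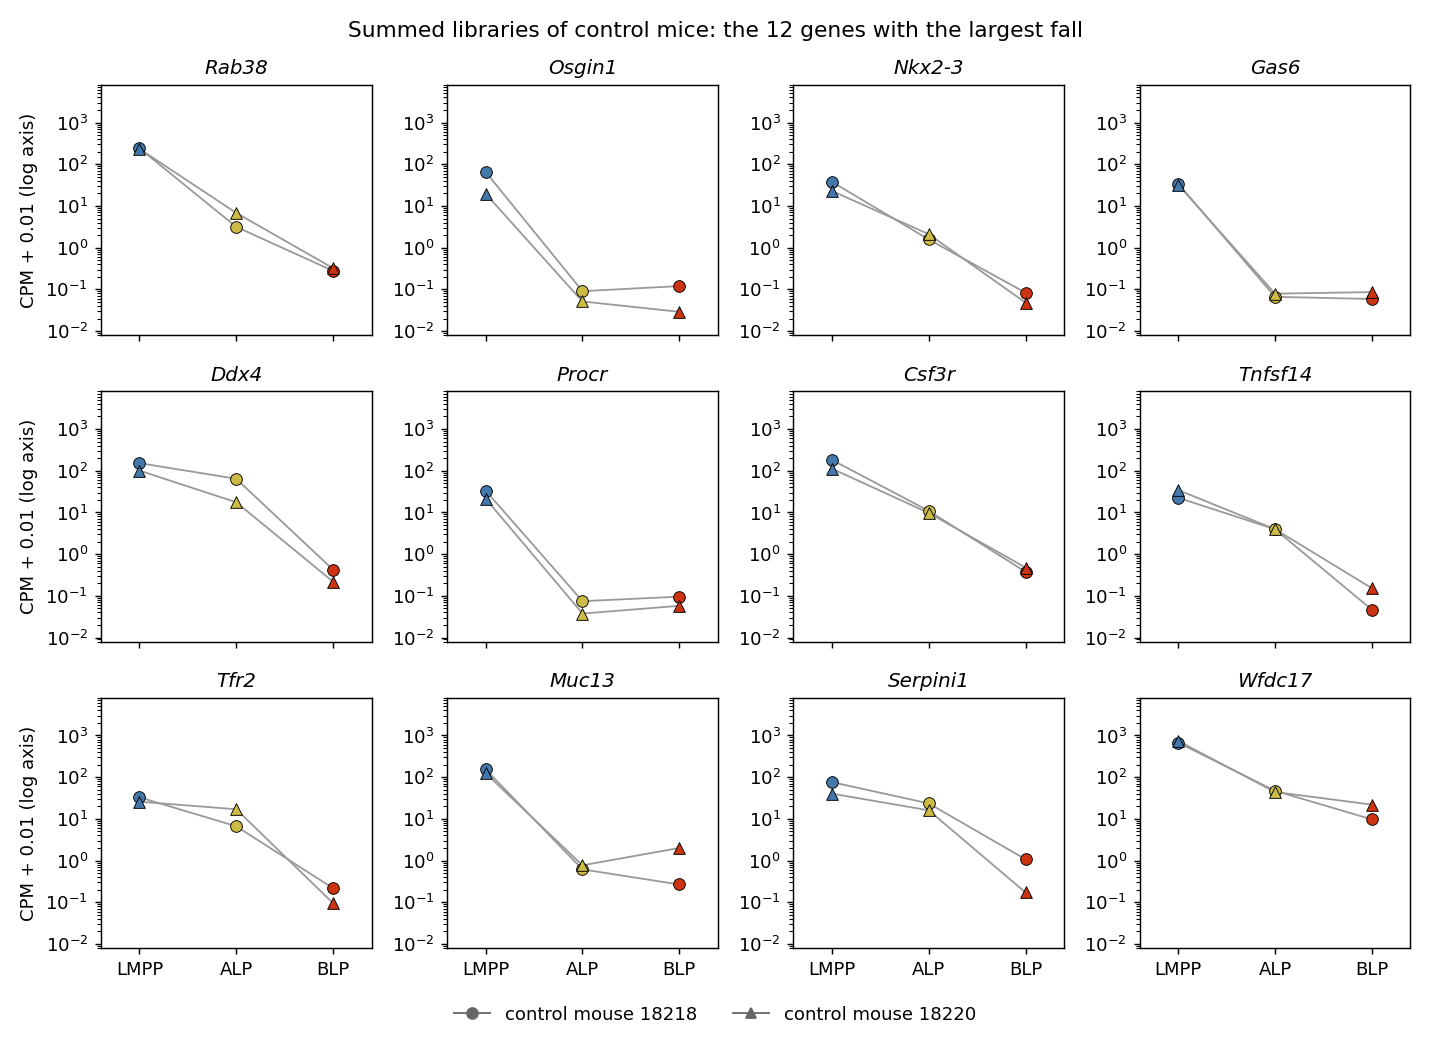
Level of the 12 genes with the largest fall, in CPM plus 0.01 on a log axis, drawn as for the genes that rose. Osgin1, Gas6, Procr and Muc13 reach their BLP level in ALPs, while Ddx4, Tfr2 and Serpini1 lie nearer LMPPs there on the log axis. In the ALPs of mouse 18220, 1 cell gave 78.6%, 68.6% and 65.4% of the reads of these last genes. Their mean shares of cells with a read at equal depth in LMPPs, ALPs and BLPs were 47.9%, 21.8% and 0% for Ddx4. They were 21.3%, 5.88% and 2.90% for Tfr2 and 23.4%, 11.9% and 1.47% for Serpini1.

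Largest among the named falls was Rab38, a GTPase gene of lysosome-related organelles, at 243 and 235 CPM in LMPPs, 3.16 and 6.84 CPM in ALPs and 0.270 and 0.315 CPM in BLPs. Gas6, the ligand of the Axl and Mer receptors, stood at 34.4 and 32.3 CPM in LMPPs and at most 0.076 CPM in ALPs and BLPs (log2 fold change -9.01 ± 0.74 SE, adjusted p = 0.0023). Osgin1, a gene of the oxidative stress response, was at 65.3 and 19.6 CPM in LMPPs, where at equal depth only 8 and 6 cells had a read of it. Ddx4, an RNA helicase gene known from germ cells, was read in 25 and 20 LMPPs and 23 and 5 ALPs but in 0 and 0 BLPs at equal depth, with 152 and 101 CPM, 64.2 and 17.6 CPM and 0.417 and 0.210 CPM. Csf3r, the G-CSF receptor, went from 182 and 112 CPM through 10.9 and 9.70 CPM to 0.368 and 0.468 CPM (-8.45 ± 0.90 SE, adjusted p = 0.0052). Mpo, an abundant granule enzyme gene, stood at 498 and 385 CPM in LMPPs and 137 and 66.6 CPM in BLPs and did not pass (adjusted p = 0.084, or 0.034 with mouse as a block), and the neutrophil and monocyte list as a whole had a median of -1.64. In the erythroid and megakaryocyte list 2 of 16 fell, none rose, and the median was -1.86. Car2, a carbonic anhydrase gene, gave most of that list's level, going from 1513 and 1163 CPM through 146 and 73.9 CPM to 49.8 and 89.1 CPM. Itga2b (CD41) went from 1.23 and 8.14 CPM to 0.012 and 0.019 CPM. It rested on few LMPPs: 1 cell in each mouse gave 94.9% and 77.4% of its reads, and 1 and 5 cells had a read at equal depth. The defining erythroid gene Gata1 stood at 0.768 and 0.022 CPM in LMPPs and had no read in BLPs. Wfdc17, Tnfsf14, Tfr2 and Serpini1 completed the 12, with BLP levels between 0.037 and 21.9 CPM. With mouse as a block, Rab38, Ddx4, Tfr2 and Itga2b no longer passed (adjusted p = 0.066, 0.053, 0.098 and 0.10). Gas6 and Muc13 share exon bases with another annotated gene.

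**Figure D3:**
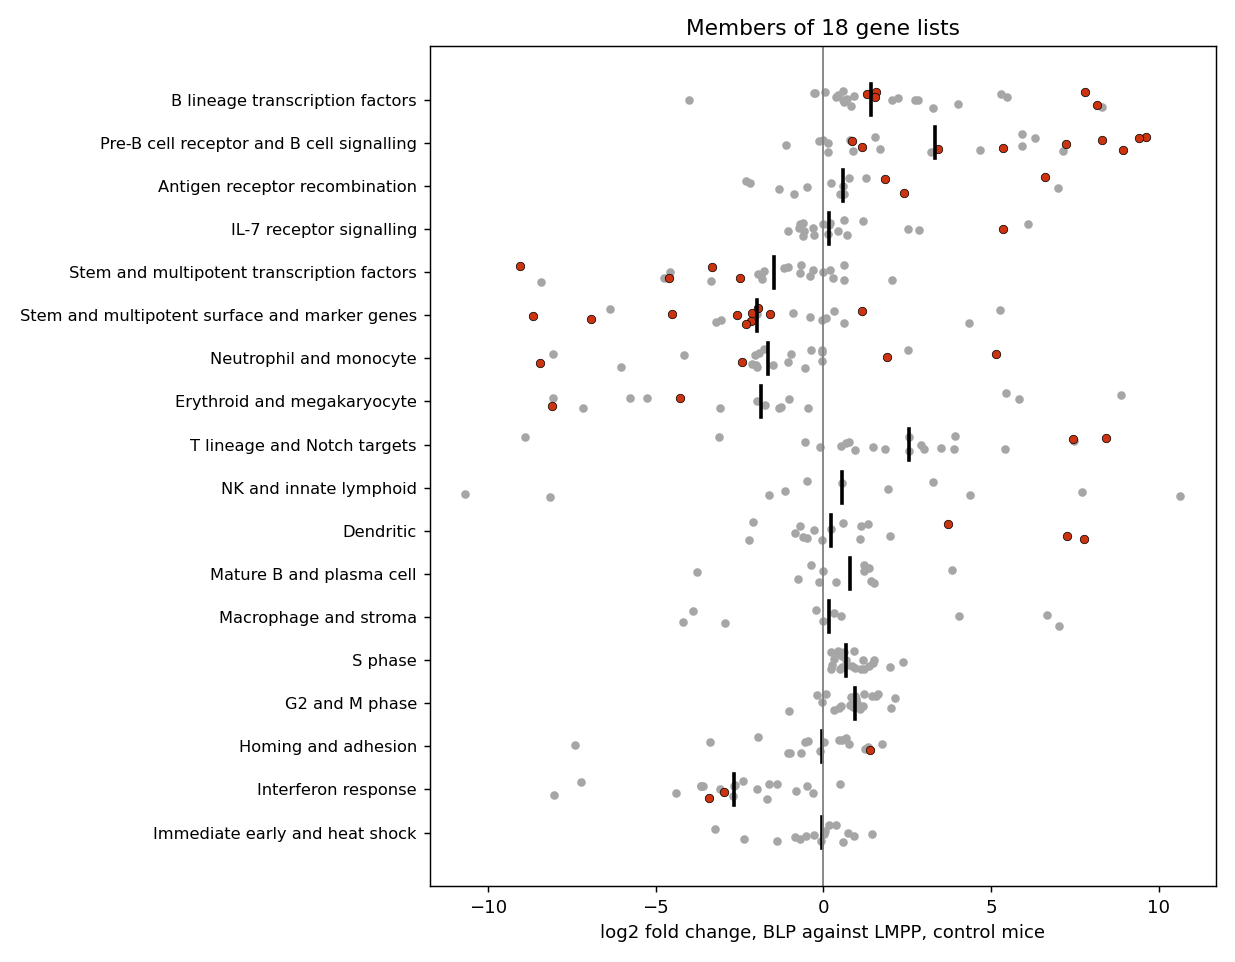
Log2 fold change from LMPP to BLP in control mice for the tested members of 18 gene lists, with 1 point per gene, red where the adjusted p was under 0.05, and a bar at each list's median. The pre-B cell receptor list (median 3.32) and the interferon response list (-2.66) lie furthest to the 2 sides.

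Interferon response genes were lower in BLPs in 20 of 21 cases, beside 9914 of all 19903 genes tested. Their median of -2.66 was the lowest of the 18 lists, but only Oasl2 and Oas1a passed the test. Oasl2 went from 242 and 215 CPM through 49.4 and 84.4 CPM to 28.7 and 14.3 CPM (-3.41 ± 0.50 SE, adjusted p = 0.023), and Oas1a had an adjusted p of 0.091 with mouse as a block. Several members differed widely between the LMPP libraries themselves, Rsad2 at 208 and 33.5 CPM and Ifit1 at 194 and 39.8 CPM. The summed level of the list was 1731 to 2875 CPM in LMPPs, 796 to 1480 CPM in ALPs and 594 to 662 CPM in BLPs. In null mice the list's median for the same span was -0.12. Among cell cycle genes, all 24 S phase genes had a positive difference (median 0.68) and 21 of 24 G2 and M phase genes did (median 0.93). Over all genes tested, 9819 of 19903 had one. None passed the threshold in either list. The G2 and M list was highest in ALPs, summing to 1589 to 3767 CPM against 544 to 714 CPM in LMPPs and 959 to 1545 CPM in BLPs. Immediate early and heat shock genes (16 tested, none called) had a median of -0.03. Fos, the most familiar of them, was higher in mouse 18220 in all 3 populations: it stood at 144, 94.2 and 189 CPM in the LMPPs, ALPs and BLPs of mouse 18218 and at 1088, 807 and 1406 CPM in those of mouse 18220. The part of interferon, cycling or immediate early genes in the other differences was not tested. Over the 18 lists, no median between LMPP and BLP changed when members without a read in either library of a group were set to the bound that 3 counts over the group give.

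Control ALPs lay between both ends for most of the 188 genes. The place of ALPs is the log2 fold change from LMPP to ALP as a percentage of that from LMPP to BLP, so that 0 is the LMPP and 100 the BLP level. Among the 117 genes that rose its median was 69.8% (quartiles 47.8% and 84.2%): 85 genes were nearer to the BLP level and 32 nearer to the LMPP level. Among the 71 that fell the median was 56.3% (33.7% and 81.5%), with 39 nearer to BLP and 32 nearer to LMPP. On linear CPM the medians were 43.2% and 85.8%, so the order of the 2 groups depends on the scale. Both steps share the ALP libraries, both terms of the place share the LMPP libraries, and the place has no test. The 188 genes were chosen for LMPP and BLP levels that lay apart, so an ALP level between them follows in part from the choice. Genes that changed at least 2-fold without passing the threshold had medians of 59.6% on the higher side and 40.0% on the lower side (3885 genes each). Of the 117 genes, 32 also passed the threshold between LMPP and ALP and 1 (Ebf1) between ALP and BLP. Of the 71, 15 and 0 did. Even the gate gene Ly6d did not pass between ALP and BLP, so the lack of a call there is not a lack of change. Over all genes tested 0.271% passed at the first step.

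The places formed a continuous range. ALPs already stood at or past the BLP level for 13 of the genes that rose, among them Crem, a cAMP-responsive transcription factor gene (61.4 and 88.4 CPM in ALPs, 31.1 and 50.0 CPM in BLPs), Gfra1, a neurotrophic factor receptor gene, Cnn3 and Hes6; Cnn3 stood at 99.2 and 102 CPM in LMPPs, 672 and 562 CPM in ALPs and 479 and 523 CPM in BLPs (BLP against LMPP 2.31 ± 0.16 SE, adjusted p = 9.2e-04). ALPs were at or below the LMPP level for 2 genes that rose, Vpreb3 and Ly6e, and within the first of 3 equal ranges of the way for 10 others, which include Pax5, Cd79a, Dlg2, Smarca4 and Tcf12. Smarca4, the ATPase of a chromatin remodeller, stood at 203 and 177 CPM in LMPPs, 210 and 234 CPM in ALPs and 468 and 696 CPM in BLPs. The middle and last ranges held 41 and 51 genes, such as the transferrin receptor gene Tfrc (54.4 and 73.3 CPM, 243 and 283 CPM, 436 and 536 CPM; place 69.8%). Among genes that fell, 10 stood at or past the BLP level in ALPs, 1 (Hemgn) was above its LMPP level there, and 17 were within the first range, among them Ddx4, Tfr2, Oas1a and Anxa3. For Ddx4 and Tfr2, 1 cell gave 78.6% and 68.6% of the reads in the ALPs of mouse 18220. Hes6, Smarca4 and Hemgn no longer passed with mouse as a block (adjusted p = 0.067, 0.053 and 0.097).

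**Figure D4:**
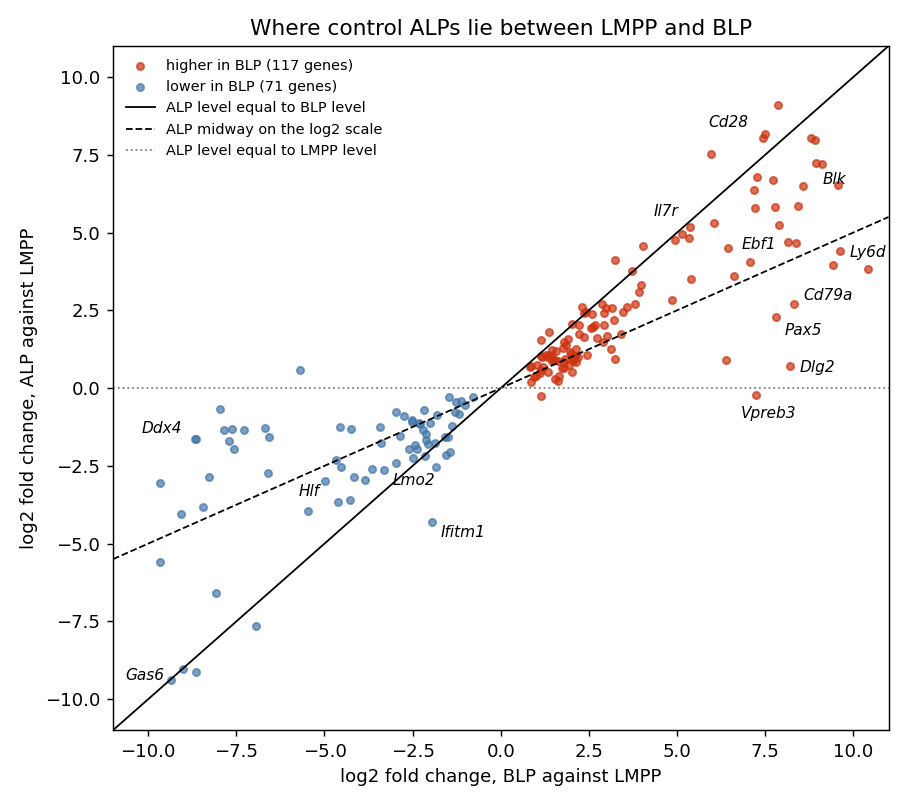
Log2 fold change from LMPP to ALP against that from LMPP to BLP for the 117 genes that rose and the 71 that fell in control mice, with 1 point per gene. Points on the solid line have the BLP level in ALPs, those on the dotted line the LMPP level; Il7r and Gas6 lie on the solid line, Dlg2 and Vpreb3 near the dotted one.

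Single cells were then read at an equal depth of 50000 gene counts. The number of the 117 genes with a read had a median of 39 and 38 per LMPP, 68 and 65 per ALP and 79 and 75 per BLP. That of the 71 genes had medians of 43 and 40, 27 and 21.5, and 21 and 17. These counts use the genes chosen from the sums of the same cells, so the LMPP and BLP values are a description. The genes were chosen to be low in these LMPPs and high in these BLPs, so the ranges that ALPs are set against are a description too. In all, 49 of 74 and 19 of 40 ALPs had more of the 117 genes than any LMPP, while 67 and 35 of them, and 3 of 47 and 0 of 47 LMPPs, were at or above the lowest BLP.

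**Figure D5:**
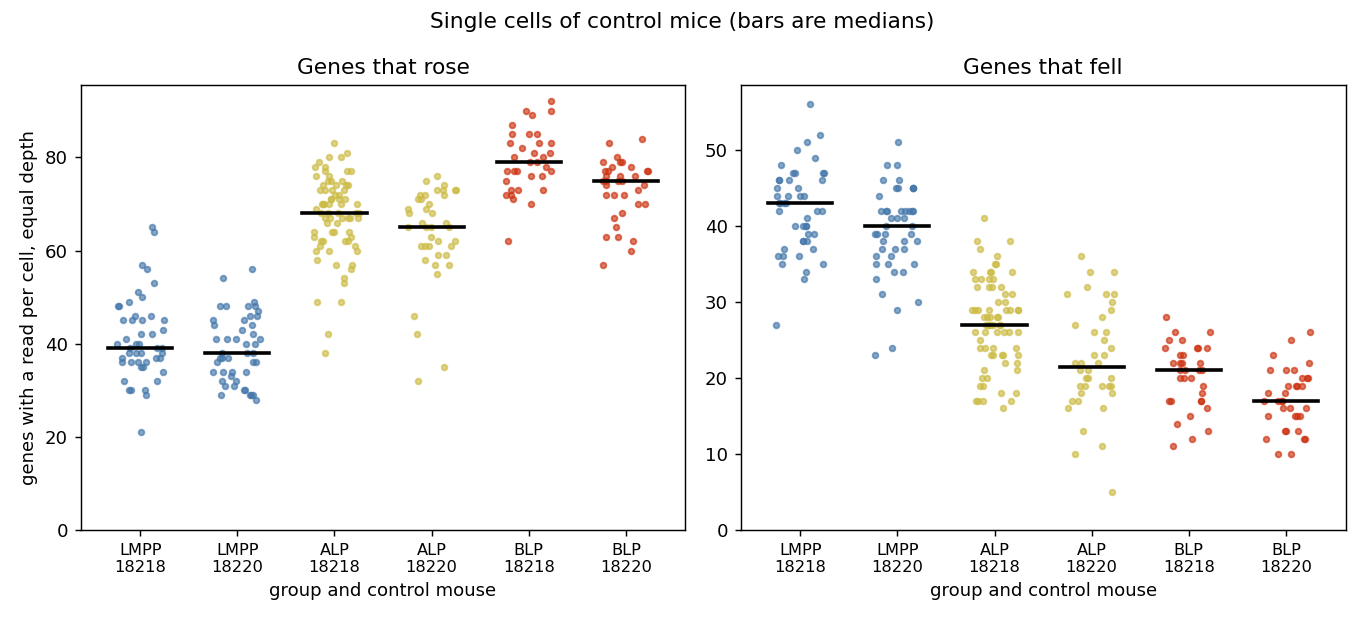
Number of genes with a read per kept cell at equal depth, for the 117 genes that rose (left) and the 71 that fell (right), by population and control mouse, with 1 point per cell and bars at the median. ALP cells spread from the LMPP range into the BLP range on both sides.

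BLPs were not alike in the genes that mark the end of the span. Every kept BLP had a read of Ly6d at equal depth (34 of 34 and 35 of 35), 26 and 27 had one of Ebf1, and 10 and 10 had one of Pax5. Of the BLPs with Pax5, 9 of 10 and 10 of 10 also had Ebf1. In ALPs, 24 of 74 and 11 of 40 cells had Ebf1, and 0 and 1 had Pax5. The mean share over mice was 76.8% of BLPs against 7.45% of LMPPs for Ebf1, 29.0% against 2.13% for Pax5, 66.7% against 8.51% for Cd79a, 71.2% against 8.51% for Rag1 and 55.0% against 8.51% for Siglech, and for Cd34 it was 75.5% against 100%. Each two-sided exact permutation test over mice gave p = 0.33, the smallest that 2 mice against 2 allow. Reads of the dendritic and B lineage genes were found in the same BLPs: 13 of 18 and 15 of 20 cells with Siglech also had Ebf1, beside 26 of 34 and 27 of 35 among all BLPs. Without thinning, single reads of late genes were common in LMPPs as well: 75.5% of LMPPs and 100% of BLPs had at least 1 read of Ebf1, and 84.0% and 98.6% one of Cd79a, whereas at least 10 reads of Ebf1 were found in 1.06% of LMPPs and 78.3% of BLPs. The source of such single reads was not tested.

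The same span in null mice, whose libraries took no part in the control difference but share its estimate of spread, gave 142 genes higher and 87 lower in BLPs (1.15% of those tested in either direction). All 117 genes that rose in control mice had a positive difference in null mice, 115 of them in both null mice taken singly, and 78 passed the threshold there (66.7% of the control calls and 54.9% of the null calls). Of the 71 that fell, 67 had a negative difference, 63 of them in both null mice taken singly, and 29 passed (40.8% and 33.3%). Over all genes tested, 12537 of 19903 had the same sign. The median log2 difference of the 117 was 2.61 in control and 2.24 in null mice, and that of the 71 was -3.31 and -1.91; since the genes were chosen for their control values, larger values there follow in part from the choice. Among the genes with the largest changes, control and null values lay close for Ebf1 (8.16 and 8.13) and Gas6 (-9.01 and -9.44). They lay further apart for Serpini1 (-6.57 and -1.31), Nkx2-3 (-9.06 and -4.42), Rab38 (-9.66 and -5.30), Csf3r (-8.45 and -4.36) and Hes1 (8.44 and 5.33). The close values of Ly6d (9.63 and 9.68) are not a finding, since the BLP gate used its protein in both genotypes. No gene differed in its span between the genotypes by edgeR's interaction test (0 genes, smallest adjusted p = 0.71; 1349 at an unadjusted p under 0.05), nor by limma-voom (0), while DESeq2 called 394, among them Serpini1 and Csf3r (DESeq2 adjusted p = 0.0014 and 0.0022). Without the library labelled null LMPP of mouse 18219, which leaves 1 null LMPP library assumed to vary like the other groups, 31 genes were higher and 17 lower in null BLPs, all 117 and 67 of the 71 kept the sign of the control difference, 23 and 11 of them passed, and the interaction test called 0 genes (1282 at an unadjusted p under 0.05).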

How the data were processed

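Single cells sorted from bone marrow of 4 mice were sequenced one by one, and the deposited values are read counts of each gene in each cell, as whole numbers. The authors aligned reads to mm10 with GSNAP and made the counts with HTSeq 0.5.3p3, per the submitters' processing notes, which name neither an annotation release nor a strand setting. Reads carry no molecular identifiers. Genes took 43.2% of all entries, spike-ins 6.13% and HTSeq summary entries 50.7%, and only genes entered the library sizes and the fit. Symbols and coordinates are from GENCODE M21 on GRCm38, the assembly also called mm10, and 45143 of 46078 gene identifiers had a symbol there. Promoter sequences are from RefSeq on GRCm38.p6 and were matched by symbol.

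Cells needed 50000 or more nuclear gene counts, 1000 or more nuclear genes, no more than 20% mitochondrial and no more than 50% spike-in counts. No 2 cells had identical counts (0 pairs), and no doublet caller was run on cells sorted singly into wells. Kept cells were summed into 12 libraries by mouse and population (53741264 to 137497554 gene counts), filtered with filterByExpr, scaled by TMM and fitted with edgeR 4.0.16 (R 4.3.3) as 6 groups with 6 residual degrees of freedom. The biological coefficient of variation was 86.9%. P-values were adjusted over all genes tested by the Benjamini-Hochberg method, with 0.05 as the threshold, and a standard error is the log2 change over the root of its F statistic. The script was also tested on simulated data, with 50 genes changed at each size. It recovered 4% of 2-fold, 38% of 4-fold, 74% of 16-fold and 94% of 64-fold changes, and called 1 unchanged gene. A gene that did not pass may therefore still have changed. DESeq2 1.42.0 and limma 3.58.1 (voom) were alternatives. Shares of cells use cells thinned to 50000 gene counts and an exact permutation test over mice.

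The same animals gave all populations, so mouse numbers pair the libraries, and deviations of LMPP and BLP from their group means correlated by 0.0555 for each mouse. Named genes are the gate genes and Mbd3, up to 12 per direction with the largest change among genes past the threshold, whose higher group averaged 20 CPM or more, without overlap of the mice (predicted genes, pseudogenes, receptor segments and Y-linked genes left out), and up to 4 members of each of 18 lists with the smallest p. Ell3, Tfrc, Smarca4, Crem, Gfra1, Cnn3, Hes6, Hemgn, Anxa3, Arpc5l, Ighm, B230118H07Rik, Cd72 and other list members beyond those 4 were chosen after their values were seen. The cells, lists and rules were chosen with earlier results of these data known.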

Additional observations from a re-analysis of the deposited data

Results flagged for a closer look

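In 4 of the 71 genes that fell from LMPP to BLP in control mice, both null mice moved the other way; the 2 genotypes were set against each other by edgeR's interaction test, in which none of the 4 passed the adjusted threshold. Arhgef40, a guanine nucleotide exchange factor gene, had a log2 difference of -7.84 in control and 0.33 in null mice. Flywch2 had -7.71 and 0.36, Ogfrl1 -1.46 and 0.23, and A630052C17Rik -6.70 and 2.47. The unadjusted interaction p-values from edgeR were 1.2e-04, 6.8e-05, 0.0013 and 8.8e-05, and each had an adjusted value of 0.71, which was also the smallest over all genes. In control BLPs no cell had a read of Arhgef40, Flywch2 or A630052C17Rik at equal depth, and in control LMPPs a mean over mice of 12.8% to 14.9% of cells did. Without the library labelled null LMPP of mouse 18219, in which Mbd3 was read at 24.7 CPM, the null difference stayed positive for Arhgef40, Ogfrl1 and A630052C17Rik and was not positive for Flywch2. Npr2, another gene that fell in control mice, then had a positive null difference.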

How the results depend on the processing

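All 188 genes kept their direction under every alternative in which they were tested (186 of them where cells were thinned), and of 1470 values of named genes under the alternatives 1104 stayed on their side of the threshold, 314 lost the call, 52 gained it and 1 changed sign (Ptprc, not called in either fit, without 18220). Where only the libraries in the fit changed, the direction of the 188 genes was fixed by the lack of overlap between control LMPP and BLP libraries. The counts of genes did move. Higher and lower genes numbered 117 and 71 in the fit reported, 990 and 908 with DESeq2, 249 and 206 with limma-voom, 240 and 207 without a filter on low counts, 250 and 208 with every cell thinned to equal counts, 34 and 8 with control libraries alone, and 12 and 8 with the control LMPP and BLP libraries alone. With mouse as a replicate block they were 81 and 45 over 12 libraries (105 of the 188 genes among them) and 2 and 0 over control libraries; of the 24 genes with the largest changes, Vpreb2, Gas7, Cd79a, Rab38, Nkx2-3, Ddx4 and Tfr2 lost the call in the former. Leaving out 1 mouse or 1 library gave 0 to 113 higher and 0 to 43 lower genes: 0 and 0 without 18220 (800 and 826 at an unadjusted p under 0.05), 3 and 0 without 18218, 34 and 9 without 18217, 32 and 8 without 18219, and 113 and 43 without only the null LMPP library of 18219, an alternative chosen after seeing the data in which Gas7, Osgin1 and Ddx4 lost the call. Each of these fits has fewer residual degrees of freedom, and a lone library is assumed to vary like the other groups. The test of the genotype difference gave 0 genes under every alternative run except DESeq2, which gave 394. The median place of ALPs for genes that rose and fell was 43.2% and 85.8% on linear CPM, and 66.4% to 67.8% and 59.6% to 63.7% without 1 control mouse on log2(CPM + 1), a scale on which both mice gave 69.1% and 58.7% (added after seeing the data). Differences between BLP and LMPP in the share of cells with a read, at least 10 reads and then at least 1 read in unthinned cells, were 77.2 and 24.5 percentage points for Ebf1, 31.9 and 41.7 for Pax5, 75.4 and 14.5 for Cd79a, 54.4 and 36.1 for Siglech and -10.04 and 0 for Cd34; for Rag1 the latter was 25.2. The cause of these shifts was not tested. In the control libraries 1 cell gave 15.3% to 34.8% of the reads of the median gene, which limits the precision of summed levels.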
